A study of Mus musculus with 3 samples.

Results

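Skin mast cells labelled as derived from fetal haematopoietic stem cells (fetal HSC) were compared with skin mast cells labelled as derived from late erythro-myeloid progenitors (late EMP). Both were traced with the same Runx1-driven Cre. All genes with a symbol and at least 1 FPKM (fragments per kilobase of transcript and per library size) in 1 of the 2 libraries were taken, which gave 11003 of the 17613 genes with a symbol and of the 20677 rows in the table. The other 6610 genes with a symbol were under 1 FPKM in both libraries. No measured difference entered this filter. The gene lists used below were chosen with earlier results of these data known, and many of the named genes by the size of their difference.

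Both libraries came from Runx1Cre/EYFP mice of mixed C57BL/6xCD1xFVB background, in which recombined cells and their progeny carry the fluorescent protein EYFP. A pulse of 4'OHT, the drug that activates the inducible recombinase, was given at embryonic day 8.5 for the late EMP library and at embryonic day 9.5 for the fetal HSC library. Mast cells were sorted from skin 1 week after birth in both cases. The other library of the series, labelled early EMP, came from Csf1rCre/EYFP mice of the same background and age pulsed at embryonic day 8.5, and its values are given beside a few genes. The sources used here do not give the number or sex of the animals, nor say whether they were pooled. The pulse labels the cells that use the Runx1 promoter while the drug is present, so a group stands for a labelling window and the origin is the submitters' reading of it. Each group has 1 library, so no difference below has a replicate check and none has a p-value.

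Blood cells arise in the embryo in waves: erythro-myeloid progenitors bud from the yolk sac, and haematopoietic stem cells from the aorta shortly afterwards, and both waves pass through a phase of Runx1 expression. Mast cells of the skin are long-lived granulocytes that store proteases, histamine and heparin and are armed through the IgE receptor. Major histocompatibility complex (MHC) class II molecules present peptides from engulfed material to helper T cells. They are a hallmark of dendritic cells, B cells and macrophages, and some mast cells carry them as well. Their genes share an upstream X box and Y box, and their coactivator is encoded by Ciita.

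Expression was close for most genes. Of the 11003 genes, 10073 (91.5%) were within 2-fold of each other, measured as log2 of (FPKM + 1) in the fetal HSC library over (FPKM + 1) in the late EMP library. The remaining 930 genes (8.45%) differed by 2-fold or more. Of these, 313 (2.84% of all) were higher in fetal HSC cells and 617 (5.61%) were lower. At 4-fold, 31 were higher and 43 lower. The median over all genes was -0.08 and the middle 50% lay between -0.42 and 0.22. Genes listed at 0 in 1 library account for 161 of the 930, and each of these is past 2-fold by construction. Just inside the line on the higher side stood Pfdn4, a prefoldin subunit, at 6.42 FPKM in late EMP cells against 14.1 in fetal HSC cells. Just outside it stood the mast cell protease Mcpt8, at 17.5 against 35.9 FPKM. On the lower side the nearest were Myo1c, a motor protein, at 17.1 against 8.04 FPKM inside and the apoptosis regulator Bad, at 32.1 against 15.6 FPKM, outside.

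**Figure D1:**
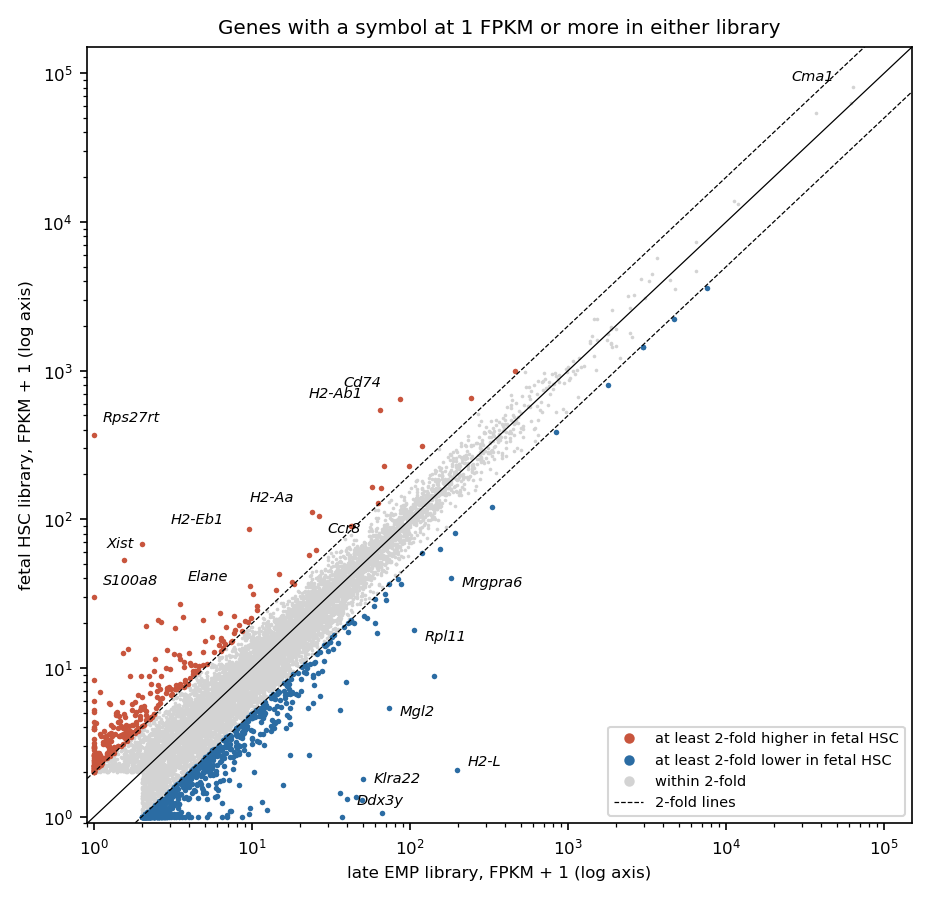
Each point is 1 of the 11003 genes, with FPKM + 1 in the late EMP library on the x axis and in the fetal HSC library on the y axis, both logarithmic. Red points are the 313 genes at least 2-fold higher and blue points the 617 at least 2-fold lower in the fetal HSC library, grey points lie within 2-fold, and H2-Ab1 and Cd74 stand apart at high FPKM.

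The implied depth was 15.4 M fragments for the late EMP library and 17.0 M for the fetal HSC library, an imprecise estimate from the steps between low values. At these depths 1 FPKM of a 2000-base transcript is about 31 and 34 fragments. The share of genes at least 2-fold apart was 22.3% among the 1808 genes with a mean under 2 FPKM and 2.35% among the 1364 with a mean of 50 FPKM or more. It also differed with the length of the transcript. Of 940 genes with transcripts under 1000 bases, 9.36% were higher and 6.70% lower in fetal HSC cells, and of 2859 genes with transcripts of 4000 bases or more, 0.700% were higher and 3.60% lower. The part of transcript length in the results below was not tested, and lengths are given where a group is short. The 10 most abundant genes held 35.2% of the summed FPKM in late EMP cells and 39.2% in the fetal HSC library.

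**Figure D2:**
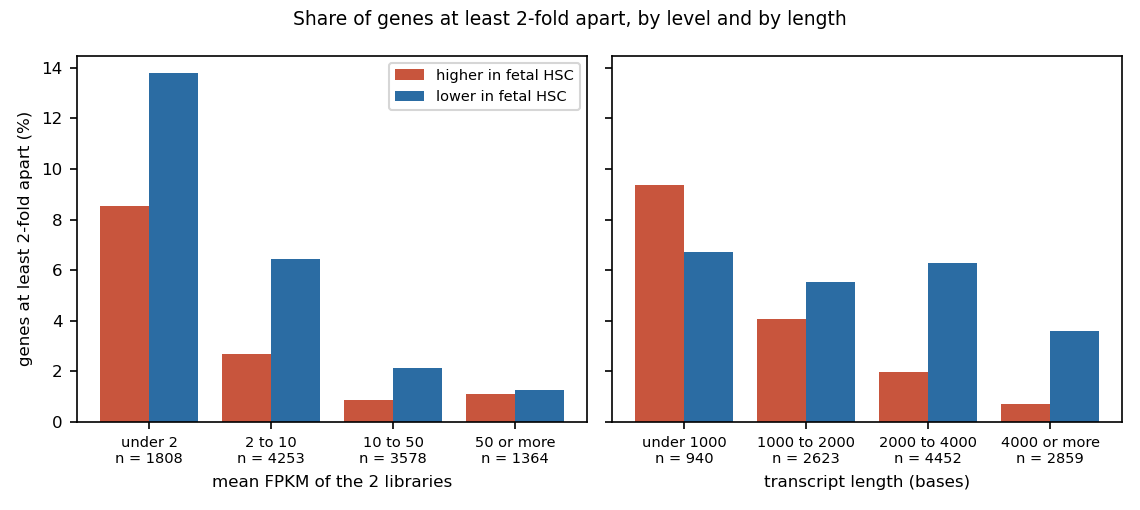
Bars give the percentage of genes at least 2-fold higher (red) or lower (blue) in the fetal HSC library, in bins of mean FPKM on the left and of transcript length in bases on the right, with the number of genes under each bin. The higher share falls from 9.36% in the shortest bin to 0.700% in the longest, while the lower share is 6.70% and 3.60% in those bins.

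The label of the cells was checked first. The receptor for stem cell factor, Kit, was at 606 FPKM in late EMP cells and 405 in fetal HSC cells, and Hdc, which makes histamine, at 3061 and 3069. Gata2, a transcription factor needed by mast cells, was at 517 and 359 FPKM, and Mitf, another, at 25.8 and 23.6. The chymase Cma1 was at 63894 and 80925 FPKM, the carboxypeptidase Cpa3 at 37222 and 53824, the chymase Mcpt4 at 11788 and 13197, and cathepsin G, encoded by Ctsg, at 753 and 783. These are connective tissue mast cells by their proteases in both libraries. Of the 7 protease genes, 6 were within 2-fold (91.5% over all genes). The exception was Tpsab1, a tryptase, at 7524 against 3608 FPKM. It shares sequence with the tryptase gene Tpsb2, at 62101 and 62828 FPKM, and the 2 together summed to 69625 and 66435. Runx1 itself, whose promoter drives the recombinase, was at 12.3 and 12.5 FPKM.

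MHC class II chains had the highest median of the 56 gene lists, which were chosen with earlier results of these data known. H2-Ab1, the beta chain of the I-A molecule, was at 63.2 FPKM in late EMP cells and 541 in fetal HSC cells. Its partner H2-Aa, the alpha chain, was at 22.99 and 111 FPKM. H2-Eb1, a beta chain of the I-E molecule, was at 8.59 and 85.6 FPKM. Cd74, the invariant chain that guides class II molecules to endosomes, was at 84.8 and 639 FPKM. All 4 were more than 4-fold higher in the fetal HSC library. As plain ratios of FPKM, without the pseudocount, this was 8.56-fold for H2-Ab1, 4.82-fold for H2-Aa, 9.96-fold for H2-Eb1 and 7.54-fold for Cd74. The median log2 difference, with the pseudocount, was 2.99 beside -0.08 over all genes. H2-Eb2, the remaining chain gene of the list, was at 0.02 and 0.04 FPKM and was not counted. The 5 genes together summed to 180 and 1376 FPKM. In early EMP cells H2-Ab1 was at 9.11 FPKM, H2-Aa at 1.87, H2-Eb1 at 1.53 and Cd74 at 12.9, so the late EMP library lay between the other 2 for each of these genes. Among the 1364 genes with a mean of 50 FPKM or more, 15 were at least 2-fold higher, and 3 of these were H2-Ab1, H2-Aa and Cd74. Their transcripts are 1212, 1128 and 1317 bases long, in a range (1000 to 2000 bases) in which 4.08% of 2623 genes were at least 2-fold higher.

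The genes of class II peptide loading and of the transcription of these genes differed less. Of 11 measured, 4 were at least 2-fold higher (2.84% over all genes) and 1 lower, with a median of 0.78. H2-Ob, counted as higher, and Rfxap were under 1 FPKM in late EMP cells and entered through the fetal HSC library alone, so nothing is read from this count. H2-DMa, a chain of the peptide editor H2-DM, was at 2.98 FPKM in late EMP cells and 11.6 in fetal HSC cells, while its partners were closer, H2-DMb1 at 21.0 and 33.8 and H2-DMb2 at 2.74 and 3.57. The chains of the H2-DO inhibitor were low, H2-Oa at 1.12 and 3.43 FPKM and H2-Ob at 0.15 and 1.46. Ctss, the cathepsin that trims the invariant chain, was at 8.88 and 20.7 FPKM, and Ifi30, a reductase of endosomes, at 8.02 and 14.5. Lgmn, legumain, an endosomal protease, went the other way, at 10.8 and 3.81 FPKM. Ciita was at 0.25 and 0.60 FPKM, under 1 FPKM in both libraries. Rfx5, a subunit of the X box binding complex, was at 3.78 and 3.45 FPKM, Rfxank at 6.52 and 5.85, and Rfxap at 0.25 and 1.18.

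The upstream sequences of 5 class II genes are shown to set genes with both the X box and the Y box letters (H2-Eb1, H2-Eb2 and H2-DMb1) beside genes with the Y box letters alone (H2-Aa and H2-Ob). H2-DMb2, not shown, holds the X box core at base -121 and the Y box at base -90. The promoter windows of 13 of the 17 genes of these lists were in the RefSeq table (GRCm38.p6). Each sequence is the 130 bases from 140 to 11 bases before the transcription start, read 5′ to 3′ on the strand of the gene, and capitals mark matches to CCAAT (the Y box, or ATTGG on the other strand) and AACNGATG (the X box core, or CATCNGTT on the other strand). The positions are chr17:34305727-34305856 for H2-Eb1, chr17:34325535-34325664 for H2-Eb2, chr17:34153051-34153180 for H2-DMb1 and chr17:34238765-34238894 for H2-Ob, all on the plus strand, and chr17:34287834-34287963 on the minus strand for H2-Aa.
H2-Eb1: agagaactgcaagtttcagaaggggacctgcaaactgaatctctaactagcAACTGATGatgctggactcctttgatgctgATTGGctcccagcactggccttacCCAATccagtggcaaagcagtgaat
H2-Eb2: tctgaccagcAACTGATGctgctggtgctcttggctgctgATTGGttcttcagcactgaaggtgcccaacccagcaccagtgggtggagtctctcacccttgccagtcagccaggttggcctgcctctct
H2-DMb1: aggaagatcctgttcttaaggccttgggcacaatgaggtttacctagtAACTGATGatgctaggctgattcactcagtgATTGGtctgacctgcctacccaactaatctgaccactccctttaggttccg
H2-Aa: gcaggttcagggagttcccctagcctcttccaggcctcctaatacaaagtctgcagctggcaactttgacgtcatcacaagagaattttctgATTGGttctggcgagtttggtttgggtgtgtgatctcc
H2-Ob: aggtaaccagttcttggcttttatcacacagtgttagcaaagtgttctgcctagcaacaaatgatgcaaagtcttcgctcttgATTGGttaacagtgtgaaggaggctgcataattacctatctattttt
In H2-Eb1 and H2-Eb2, 22 bases separate the X box core from the Y box, and in H2-DMb1 there are 23. H2-Eb2, at 0.02 and 0.04 FPKM, has both motifs as H2-Eb1 does, at 8.59 and 85.6 FPKM. H2-Aa, at 22.99 and 111 FPKM, has a Y box at base -48 and no match to the X box core letters. H2-Ob has a Y box at base -57, and its stretch aacaaatg is close to the X box core letters without matching them. Over all 13 genes, 5 held the X box core and 11 the Y box in the 250 bases upstream, where 1.98% and 33.8% of 32851 promoter windows did and 0.688% held both. A match is a match of letters only, and a missing match does not show that the element is absent.

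**Figure D3:**
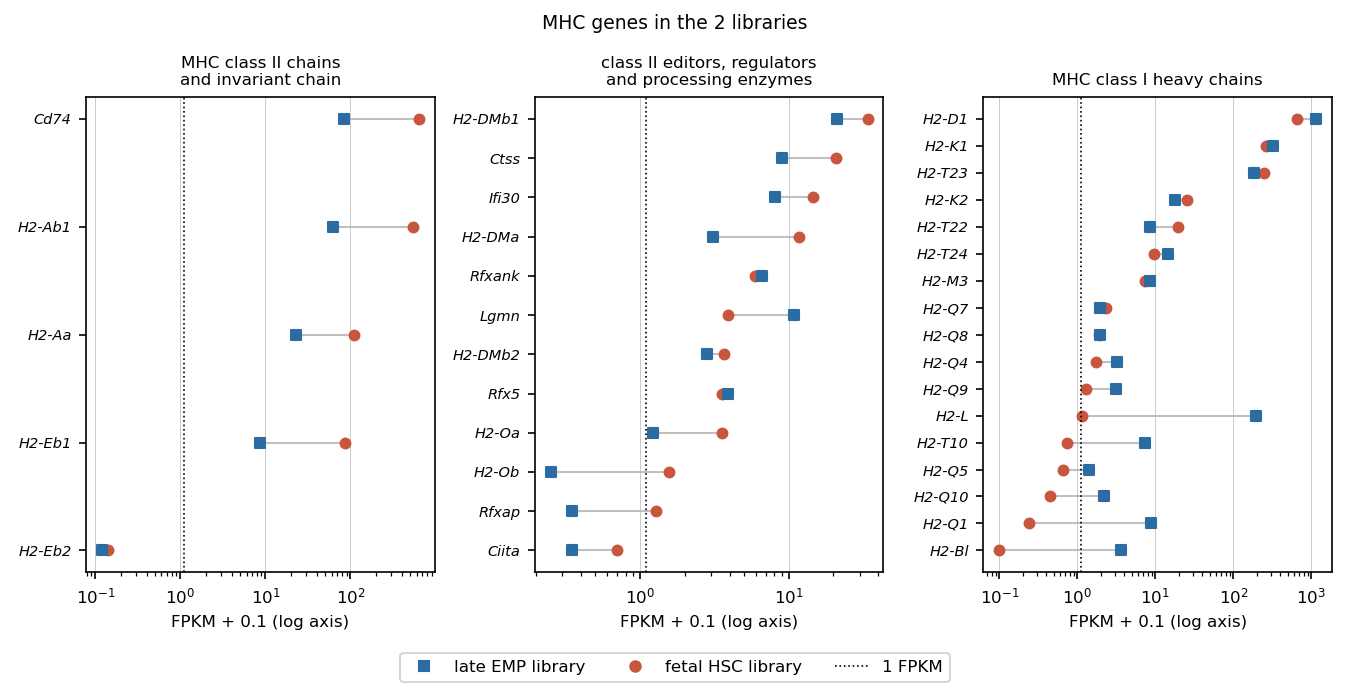
FPKM + 0.1 on a logarithmic axis for MHC class II chains, for class II editors and regulators, and for MHC class I heavy chains, with blue squares for the late EMP library and red circles for the fetal HSC library. The circles lie to the right of the squares for H2-Ab1, H2-Aa, H2-Eb1 and Cd74, and Ciita lies under 1 FPKM in both libraries.

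Markers of other cells that carry class II molecules were read beside this result, and in bulk RNA fewer cells of a type cannot be told apart from less RNA per cell. Of 12 dendritic and Langerhans cell markers in the table, 4 reached 1 FPKM, and 2 of these were at least 2-fold higher. Flt3, a growth factor receptor, was at 0.59 FPKM in late EMP cells and 3.16 in fetal HSC cells, and Xcr1, a chemokine receptor of cross-presenting dendritic cells, at 0.52 and 2.96. Both were under 1 FPKM in late EMP cells and entered through the fetal HSC library alone. Zbtb46, a transcription factor of dendritic cells, was at 0.67 and 0.62 FPKM, Itgax was at 0 and 0.72, and Clec9a at 0.23 and 0.44. The 12 genes together summed to 4.62 and 11.8 FPKM. The B cell list summed to 10.5 and 18.9 FPKM, of which Cd79b, a B cell receptor chain, made 9.34 and 16.5, while Ms4a1 (CD20) was listed at 0 in both. Irf8, a transcription factor of dendritic cell and monocyte development that is in neither list, was at 2.18 and 11.5 FPKM. It came from the list of mast cell transcription factors. Of 25 measured there, 1 (Irf8) was at least 2-fold higher (2.84% over all genes) and 1 lower (5.61%), with a median of -0.08. The part of such cells in the class II result was not tested.

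Macrophage genes included several that lay the other way. Of 16 measured macrophage and monocyte markers, 7 were at least 2-fold lower in the fetal HSC library (5.61% over all genes) and 1 higher, with a median of -0.66. With a filter at 5 FPKM the median was -0.08, and Adgre1, Cd163 and Ms4a7, counted as lower, entered through the late EMP library alone. The 3 chains of complement C1q were each lower: C1qa at 12.2 FPKM in late EMP cells against 3.05, C1qb at 13.3 against 3.96, and C1qc at 16 against 3.68. Together they summed to 41.5 and 10.7 FPKM. Pf4, a chemokine of platelets and some macrophages, was at 38.3 and 7.05 FPKM, Ms4a7 at 2.87 and 0.83, and Adgre1, which encodes F4/80, at 2.18 and 0.04. The member that was higher was Ly6c2, a surface antigen of inflammatory monocytes, at 2.65 and 20.9 FPKM. Apoe, which carries lipids, was at 2608 and 3214 FPKM, within 2-fold, as was Lyz2. Mertk was at 0.04 and 0 FPKM and Timd4 at 0.79 and 0. Without Apoe the list summed to 161 FPKM in late EMP cells and 115 in fetal HSC cells.

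Granule genes of neutrophil precursors included several at higher levels in fetal HSC cells, with 4 of 5 measured members at least 2-fold higher (2.84% over all genes), none lower and a median of 1.27. Without the filter at 1 FPKM the median was 0.28, and S100a8 entered through the fetal HSC library alone. Elane, neutrophil elastase, was at 8.73 FPKM in late EMP cells and 34.7 in fetal HSC cells. Prtn3, proteinase 3, was at 5.38 and 14.4 FPKM, and Ms4a3, a marker of granulocyte and monocyte progenitors, at 2.76 and 7.02. S100a8, a chain of the calprotectin dimer of neutrophils, was listed at 0 and at 29.0 FPKM. The other chain, S100a9, has no row in these data, so it could not be read. Mpo, myeloperoxidase, was at 39.2 and 47.9 FPKM, within 2-fold. Genes of later neutrophil stages were low: Ltf, lactoferrin, was at 0.02 in both, Lcn2 at 0.45 and 0.25, and Ly6g and Fcnb were listed at 0 in both. In early EMP cells Elane was at 0.42 FPKM, Prtn3 at 0.08 and Mpo at 0.88. The transcripts of Elane, Prtn3, Ms4a3 and S100a8 are 984, 1025, 1010 and 486 bases long.

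**Figure D4:**
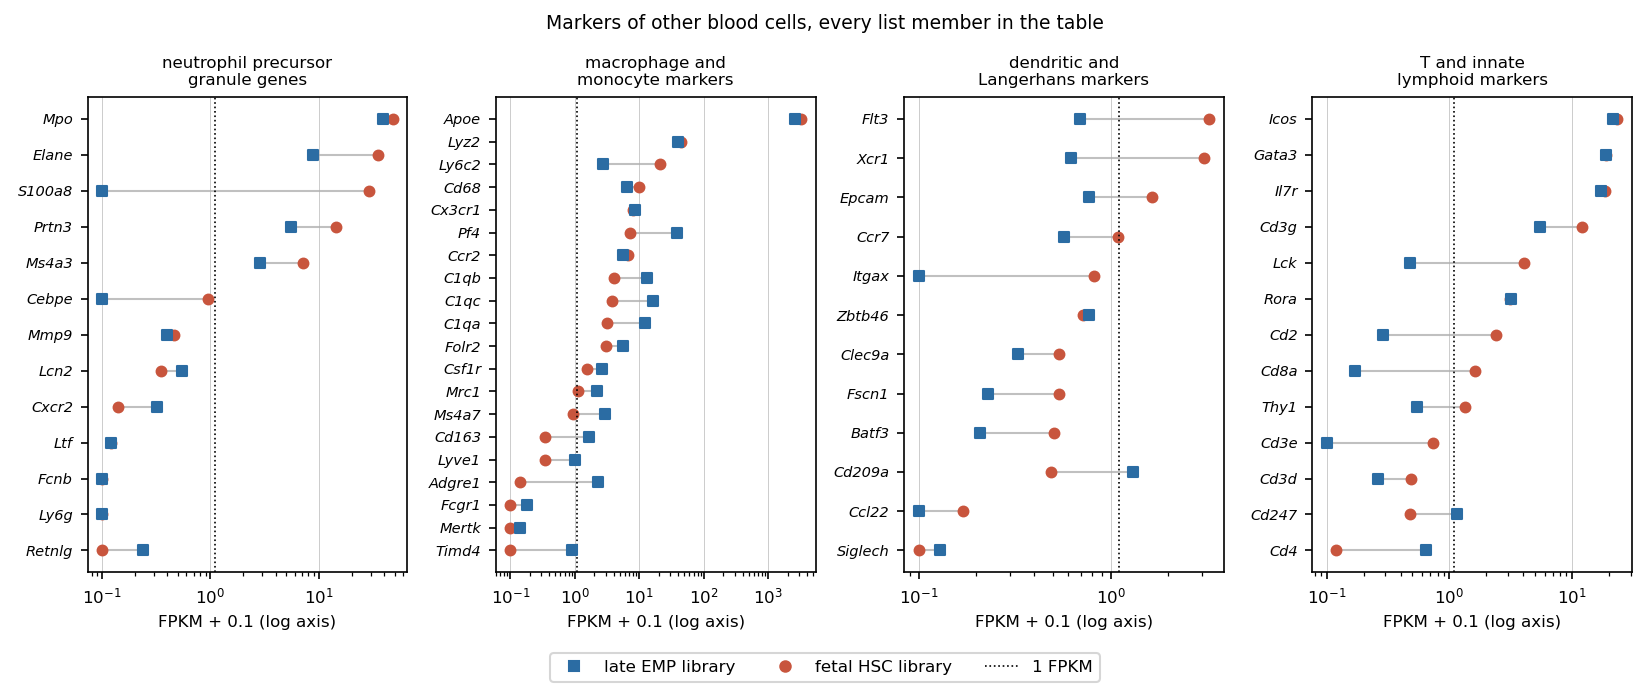
FPKM + 0.1 on a logarithmic axis for every member in the table of 4 lists of other blood cells, with blue squares for the late EMP library and red circles for the fetal HSC library. The circles lie right of the squares for Elane, Prtn3, Ms4a3 and S100a8 and left of them for C1qa, C1qb, C1qc, Pf4 and Adgre1.

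Lymphoid genes were mostly low. Of 10 measured T and innate lymphoid genes, 4 were higher by 2-fold or more (2.84% over all genes), none lower (median 0.38): Cd3g, a T cell receptor chain, at 5.36 FPKM in late EMP cells and 12.0 in fetal HSC cells, the kinase Lck at 0.38 and 3.99, Cd2 at 0.19 and 2.28, and Cd8a at 0.07 and 1.53. Lck, Cd2 and Cd8a entered the comparison through the fetal HSC library alone. Cd3e, which belongs to the same receptor complex as Cd3g, was at 0 and 0.63 FPKM. Of 4 measured natural killer and cytotoxic genes, 2 were at least 2-fold higher (2.84% over all genes) and none lower (median 1.19). These were Nkg7, a granule membrane protein, at 117 and 308 FPKM, and Gzma, granzyme A, listed at 0 and at 2.31. Gzma entered through the fetal HSC library alone. Gzmb, granzyme B, was at 13.07 and 27.04 FPKM, just within 2-fold. Among basophil genes, the protease Prss34 was at 459 and 989 FPKM, and 2386 in early EMP cells. Itga2, an integrin chain, was at 9.05 and 3.95 FPKM.

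Erythroid and platelet genes were read as markers of other lineages. Of 9 measured erythroid genes, 4 were at least 2-fold lower (5.61% over all genes) and none higher (median -0.66). Car1, the carbonic anhydrase of red cell precursors, was at 25.9 FPKM in late EMP cells and 5.45 in fetal HSC cells, Car2 at 12.8 and 2.95, and Klf1, an erythroid transcription factor, at 3.85 and 1.13. In early EMP cells Car1 was at 0.25 FPKM. The alpha globin genes together were at 10.1 and 9.58 FPKM and the beta globin genes at 5.17 and 4.24. Of 5 platelet genes, 3 were at least 2-fold lower (5.61% over all genes; median -1.02), among them Pf4, given above. Gfi1b and Lmo2 are in neither of these lists. Gfi1b, a repressor used by red cell and platelet precursors, was at 2.73 and 0.63 FPKM and entered through the late EMP library alone. It was the 1 lower gene of 25 measured mast cell transcription factors (median -0.08). Lmo2, a bridging factor of early blood cells, was at 8.79 and 3.86 FPKM and came from the stem and progenitor list (median -0.08).

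Chemokines and their receptors guide leukocytes into tissue. Of 18 measured chemokines, 5 were at least 2-fold higher (2.84% over all genes) and 1, Pf4, lower (5.61% over all genes), with a median of 0.77. All but Cxcl10 of the higher chemokines (Ccl6, Cxcl9, Cxcl16 and Xcl1) entered through the fetal HSC library alone. The interferon-induced Cxcl10 was at 1.85 FPKM in late EMP cells and 9.03 in fetal HSC cells. Ccl4, an inflammatory chemokine, was at 265 and 508 FPKM, Ccl1, the ligand of CCR8, at 61.9 and 114, and Ccl3 at 29.3 and 55.0, each within 2-fold. Of 8 measured chemokine receptors 4 were higher (2.84% over all genes) and none lower, with a median of 0.82 that was 0.22 without the filter at 1 FPKM. Cxcr3 and Xcr1, counted as higher, entered through the fetal HSC library alone. Ccr8, the most abundant of these 4, was at 25.3 and 104 FPKM, and 15.3 in early EMP cells. Ccr1 was at 2.28 and 6.17 FPKM and Cxcr3 at 0.62 and 2.51. Of 16 cytokine genes 2 were higher (2.84% over all genes): Csf2, which encodes GM-CSF, at 64.7 and 162 FPKM, and Il5, the eosinophil growth factor, at 13.1 and 32.3. In early EMP cells Csf2 was at 26.5 FPKM and Il5 at 0.56.

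Surface lectins and related receptors included some of the largest differences. Mgl2, a galactose-binding C-type lectin, was at 72.0 FPKM in late EMP cells and 4.38 in fetal HSC cells, while Clec10a, its close relative, was at 285 and 280. The 2 together summed to 357 and 285 FPKM. All 3 measured Klra genes, lectin-like receptors known from natural killer cells, were lower (5.61% over all genes). They entered through the late EMP library alone, so nothing is read from this count. Klra22 was at 49.1 and 0.80 FPKM, Klra17 at 35.0 and 0.43, and Klra1 at 8.47 and 0.04. Klra genes are near-identical, so single values are uncertain, and the 5 in the table summed to 92.6 and 1.27 FPKM, and to 371 in early EMP cells. Mrgpra6, a Mas-related receptor, was at 181 and 39.1 FPKM, while Mrgprb2, the receptor of basic secretagogues, was at 802 and 755. None of 4 Cd200 receptor genes was 2-fold apart (8.45% over all genes). The activating receptor Cd200r4 was at 107 and 180 FPKM, and at 1.11 in early EMP cells.

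MHC class I genes, which present peptides made inside the cell, were read beside class II. Of 17 measured H2 class I heavy chain genes, 1 was at least 2-fold higher (2.84% over all genes) and 5 lower (5.61%), with a median of -0.57. Of those lower, all but H2-L (H2-Bl, H2-Q1, H2-Q10 and H2-T10) entered through the late EMP library alone, so nothing is read from this count. H2-D1 was at 1151 FPKM in late EMP cells and 663 in fetal HSC cells, and H2-K1 at 326 and 263. H2-L was at 197 FPKM and 1.05, and since it is a near copy of H2-D1 the 2 were also summed, to 1348 and 664. H2-Q1 was at 8.72 and 0.14 FPKM and H2-T10 at 7.22 and 0.64, and H2-T22 was at 8.36 and 19.2. H2-T10 and H2-T22 lay in opposite directions and were not summed. The part of reads divided between class I copies in these single values was not tested. H2-Q1, H2-T10 and H2-T22 were named after their values were seen. The number and sequence of H2 class I and Klra genes differ between inbred mouse strains, and these mice are a mix of 3 backgrounds, so strain-specific alleles and expression cannot be told apart here. The class II genes H2-Ab1, H2-Aa and H2-Eb1 lie on chromosome 17 and Cd74 on chromosome 18. The part of strain-specific alleles in their values was not tested.

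The libraries differed in sex-linked RNA. Xist, the RNA that coats the inactive X, was at 0.53 FPKM in late EMP cells and 52.0 in fetal HSC cells, and the Y-linked Eif2s3y and Ddx3y were at 44.3 and 0.35 and at 38.5 and 0.32. All 12 measured genes of the Y chromosome were 2-fold or more lower in fetal HSC cells (5.61% over all genes), and 8 of them carry names of predicted genes. The 4 listed Y-linked genes summed to 90.1 and 0.70 FPKM. These 4 entered through the late EMP library alone, so nothing is read from the count. Tsix, the antisense partner of Xist, was at 0.09 and 5.85 FPKM, and without strand in the counting it cannot be told apart from Xist. Of 8 measured X-inactivation RNAs and escape genes 2 were higher (2.84% over all genes), Xist and Tsix, both of which entered through the fetal HSC library alone. Ddx3x was at 93.1 and 127 FPKM and Kdm6a at 8.15 and 9.35. Over the 352 measured genes of the X chromosome, 11 were higher and 14 lower (7.1% apart) with a median of -0.03. Autosomes ranged from 4.41% of genes apart on chromosome 12 to 10.76% on chromosome 17. Leaving out the X and Y chromosomes left 893 genes apart, 302 higher and 591 lower. Sex, day of pulse and library cannot be told apart.

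Most genes of cell division and general metabolism were within 2-fold, as were 91.5% of all genes. Among genes with a mean of 50 FPKM or more only 2.35% were apart. A list with few or no genes apart is therefore not read as a result about that list. None of 20 mitosis genes was 2-fold apart (median 0.13), with Kif23, a motor of the dividing cell's midbody, at 124 FPKM in late EMP cells and 139 in fetal HSC cells. None of 20 DNA replication genes was either (median -0.05), although the helicase subunit Mcm6 was at 53.9 and 28.5 FPKM. None of 31 respiratory chain genes, 22 lysosomal genes, 14 NF-kB feedback genes, 18 genes of the unfolded protein response or 15 housekeeping genes was 2-fold apart. Of 20 glycolysis and hypoxia genes 1 was lower (5.61% over all genes), the hexokinase Hk1 at 28.45 and 13.2 FPKM. Of 19 cholesterol synthesis genes 1 was higher (2.84% over all genes), the demethylase Cyp51 at 5.32 and 14.85. The lysosomal protease Ctsd was at 967 and 522 FPKM. Genes of mast cell function were likewise close, with none apart among 21 surface receptors (median -0.24), 19 genes of IgE receptor signalling (median -0.09) and 17 genes of histamine, serotonin and heparin synthesis (median -0.38). In the last group 13 of 17 had a log2 difference below 0, as did 54 of 79 ribosomal protein genes. The median over all genes was itself -0.08, so nothing is read from this count. Among the 13 were Srgn, the proteoglycan core of the granules, at 4706 and 3540 FPKM, and Ndst2, which sulphates heparin, at 230 and 149.

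Of 24 immediate early genes, which respond within minutes to a stimulus, 3 were at least 2-fold lower (5.61% over all genes) and 1 higher (2.84% over all genes), with a median of -0.24. Counts this small are not read as a result about the list. Zfp36, which destabilises cytokine mRNAs, was at 4656 FPKM in late EMP cells and 2227 in fetal HSC cells, Junb at 1787 and 803, and Klf2 at 72.7 and 35.7, while the stress factor Atf3 was at 9.66 and 25.1. Jun and Fosb, within 2-fold, were at 2112 and 1204 and at 503 and 293 FPKM. Of 14 clock genes, 3 were lower (5.61% over all genes) and none higher (median -0.18), led by Arntl, the partner of CLOCK, at 5.61 and 1.46 FPKM. In the interferon response list 3 of 20 were higher (2.84% over all genes) and 2 lower (5.61%), with a median of 0.17, and Isg15 was at 8.01 and 19.5 FPKM and Igtp at 12.8 and 5.27. The Ifi200 family was split, with Ifi205, a DNA sensor relative, at 1.11 and 18.2 FPKM and Ifi204 at 4.21 and 0.63.

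**Figure D5:**
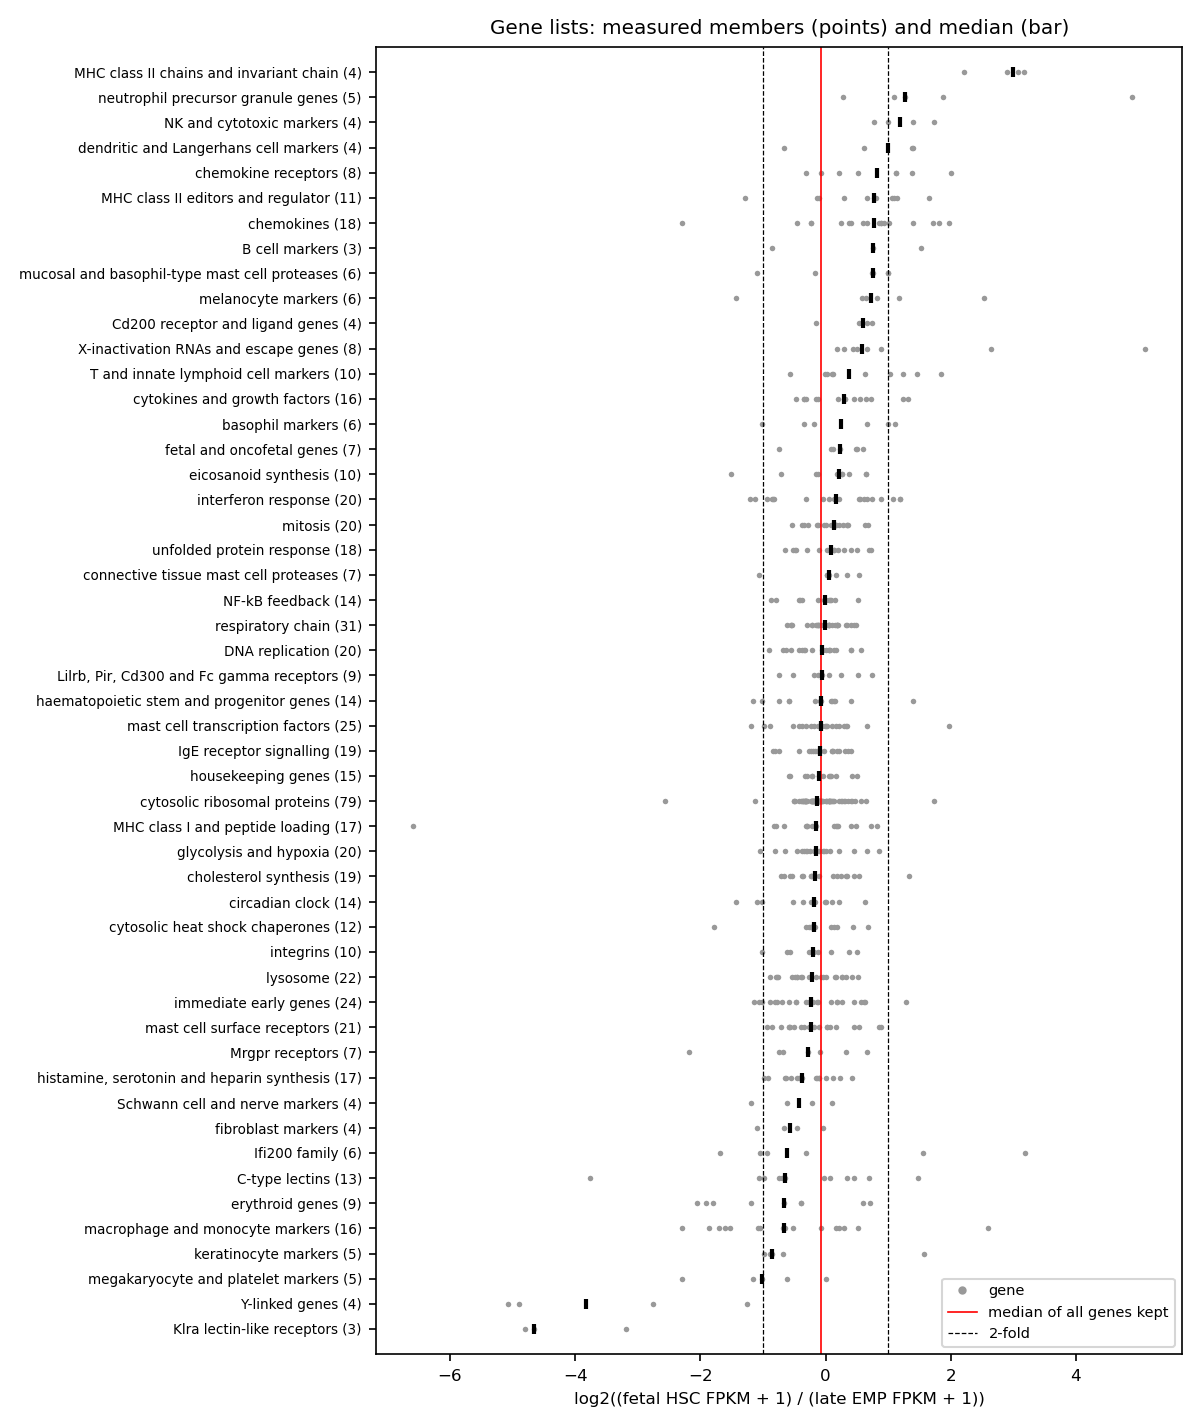
For each gene list with at least 3 measured members, grey points give log2((FPKM + 1) / (FPKM + 1)) of the fetal HSC library over the late EMP library per gene and the black bar the median, with the number of measured genes in brackets. MHC class II chains have a median of 2.99, Y-linked genes of -3.83, and the red line marks the median of all genes at -0.08.

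Several single values of the largest differences belong to gene copies, and sums over the copies were closer. Rps27rt was listed at 0 in late EMP cells and at 369 FPKM in the fetal HSC library, but with Rps27 it summed to 831 and 752. Tmem254b was at 65.3 and 0.06 FPKM and Tmem254c at 1.00 and 66.9, while the 3 Tmem254 genes summed to 70.7 and 67.8. Rpl34-ps1 was at 139 and 7.83 FPKM, while with Rpl34 it summed to 347 and 331. In other families the sum differed as the single gene did: the 4 Bcl2a1 genes, which protect granulocytes from death, summed to 3.60 and 23.2 FPKM, the Ly6c genes to 3.21 and 21.3, and the Xlr3 genes to 1.89 and 12.9. Of 79 ribosomal protein genes, Rpl10 was at 67.7 and 226 FPKM and Rpl11 at 104.9 and 16.95, and 76 were within 2-fold (91.5% over all genes).

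Among the remaining genes with the largest differences, Dnase1l3, a secreted nuclease, was at 0.63 FPKM in late EMP cells and 12.4 in fetal HSC cells. Npy, a neuropeptide, was at 1.63 and 19.5 FPKM, Plbd1, a granule phospholipase-like protein, at 2.47 and 25.97, and Tdg, a DNA glycosylase, at 1.41 and 10.5. The melanosome gene Mlana was at 2.23 and 17.6 FPKM, and of 6 measured melanocyte markers 2 were higher (2.84% over all genes) and 1 lower (5.61%). These markers summed to 16.3 and 42.2 FPKM, and the part of melanocyte RNA was not tested. On the lower side, Pde6h, an inhibitory phosphodiesterase subunit, was at 14.6 and 0.62 FPKM, Vmn2r61, a pheromone receptor gene, at 35.0 and 4.20, and Zfp488 at 23.3 and 4.85. Adprhl2, an ADP-ribose hydrolase, was at 15.4 and 2.96 FPKM. Akap2 was higher, at 1.53 and 19.8 FPKM.

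Among abundant genes, with a mean of 50 FPKM or more, the other higher genes were named after their values were seen and included Trf, transferrin, at 242 FPKM in late EMP cells and 648 in fetal HSC cells. Rnaset2b, a ribonuclease, was at 97.5 and 226 FPKM, the growth factor antagonist Spry2 at 41.0 and 88.9, and Cd52, a lymphocyte surface peptide, at 41.8 and 89.7. Of the 17 lower ones, Slc45a3, a sugar transporter, was at 326 and 120 FPKM, Arhgdia, a GDP dissociation inhibitor, at 152 and 62.2, and S100a4 at 83.2 and 38.8. Of 14 measured haematopoietic stem and progenitor genes, 1 (Flt3) was higher (2.84% over all genes) and 2 (Lmo2 among them) lower (5.61%). Their median was -0.08. Flt3 entered through the fetal HSC library alone, and counts this small are not read as a result about the list. Of 7 fetal and oncofetal genes none was 2-fold apart (8.45% over all genes), with Igf2bp3, a fetal RNA-binding protein, at 15.3 and 16.7 FPKM. Of the Hox genes and their partners in the table, 20 were under 1 FPKM in both libraries, and the partner Meis1 was at 13.8 and 12.9 FPKM.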

How the data were processed

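The authors deposited 1 table of FPKM values per gene for the 3 libraries, per the file headers. RNA was extracted from sorted cells with TRIzol and sequenced on an Illumina HiSeq platform, per the labels' protocols. Alignment and quantification tools named in the submitters' processing notes are Bowtie2 and RSEM, without versions, and the genome is given there as mm10 and as GRCm38. The column of the early EMP library was matched through its description in the labels. Because FPKM is a share of the library, very abundant genes move all others, and RSEM divides reads among near-identical copies.

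Rows with a symbol and at least 1 FPKM in the late EMP or the fetal HSC library were kept. The log2 difference used a pseudocount of 1 FPKM, so that changes of low genes come out smaller than they are. With 1 library a group no test was made. The members and the 56 gene lists were chosen with earlier results of these data known, and a list's direction is not independent evidence. Coordinates come from the RefSeq table of GRCm38.p6, which held 17569 of the 17613 identifiers, and transcript lengths from GENCODE. Of the symbols, 22 had been turned into dates in the file.

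Named genes were the 15 with the largest difference in each direction among genes that reached 10 FPKM in either library and were not 0 in the other, with predicted genes and pseudogenes set aside; up to 5 in each direction that either library lists at 0; in each list the 2 members of highest FPKM and up to 5 that differed most; and all members of the class II, Klra, Cd200 receptor, neutrophil precursor, sex-linked and connective tissue protease lists. Some genes that the rule allows are not named, and list members below its levels are named with their values. Depth was implied from steps between low FPKM values of genes with 1 transcript, of which 65.7% (late EMP) and 60.8% (fetal HSC) were no more than 0.15 from a whole fragment, where 30% would by chance for an unfitted step. The alternatives tried were a pseudocount of 0.1 or of 5 FPKM, no filter, a filter at 5 FPKM, 3 rescalings, inclusion of unnamed regions, and leaving out the sex chromosomes or the lists of other cell types. A rescaling without the connective tissue proteases, length bins and further copy families were chosen after seeing the data. Only the fold change step was tried on simulated data, drawn from late EMP values of 5 FPKM or more with seeded 4-fold changes. The filter, low genes, lists, depth and promoter steps were not tried in this way. Scripts ran in Python 3.11.15 with pandas 2.3.3, numpy 2.4.6 and matplotlib 3.10.9.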

Additional observations from a re-analysis of the deposited data

Results flagged for a closer look

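The table also holds rows without a gene symbol, which the comparison does not use. Of these, 1074 were at 1 FPKM or more in late EMP cells and 765 in fetal HSC cells, a signal in data outside the genes described above. They held 1.40% and 1.09% of the summed FPKM. The sources used here do not say how these regions were defined.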

How the results depend on the processing

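No paired analysis was possible because each group has 1 library, and none could be left out. The 930 genes at least 2-fold apart (313 higher, 617 lower) became 1724 (574 and 1150) with a pseudocount of 0.1 FPKM, 140 (54 and 86) with 5 FPKM, 388 (119 and 269) with a filter at 5 FPKM and 1686 (496 and 1190) with the unnamed regions; the first 3 settings change how low genes are weighed, the last which rows enter. Without a filter the counts did not change, since a gene under 1 FPKM in both libraries cannot pass 2-fold. Median-of-ratios factors moved the log2 values of abundant genes by 0.10, with less or no shift for low genes, and gave 372 higher and 514 lower, and rescaling to the same total 282 and 672. With a pseudocount of 5 FPKM, the class II editors had 1 member higher and 0 lower, neutrophil precursor genes 2 higher and macrophage markers 4 lower. With the filter at 5 FPKM, class II editors had 2 higher and macrophage markers 4 lower. With median-of-ratios factors 0 connective tissue proteases were lower. The Ifi200 family median of -0.62 turned to 0.04 without a filter and 1.13 with the filter at 5 FPKM, where more or fewer genes enter. Of the list medians, 16 moved by over 0.5. Without a filter chemokine receptors were at 0.22, neutrophil precursor genes at 0.28 and dendritic cell markers at 0.35. With the filter at 5 FPKM macrophage markers were at -0.08, C-type lectins at -0.03 and Y-linked genes at -4.90. With pseudocounts of 0.1 and 5 FPKM the medians were -5.94 and -2.88 for Klra genes, 1.67 and 0.37 for dendritic cell markers, -1.53 and -0.49 for platelet markers, -1.55 and -0.26 for keratinocyte markers, and -6.03 and -2.07 for Y-linked genes. All 4 class II genes were at least 2-fold higher under each pseudocount, filter and rescaling run. Of the counts of genes and lists, 126 stayed within 1.5 times and 19 did not; the depth limits values under 2 FPKM most.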
